A study of Mus musculus with 48 samples.

Results

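The livers described here came from 8 female mice on a low-fat diet, 4 with a hepatocyte Pparg knockout and 4 controls, out of 48 liver RNA-seq libraries in 10 groups by sex, diet and genotype. The 8 libraries were chosen by their group in the sample titles, and all 24170 genes of their count table were considered, of which 14285 passed edgeR's filter on low counts and were tested. All mice carried floxed Pparg alleles and, in the low-fat groups, ate the D12450J diet for 34 weeks. After 16 weeks on diet the knockout group was injected with AAV8-TBG-Cre, in which the hepatocyte-specific TBG promoter of an adeno-associated vector drives Cre recombinase, and the controls with AAV8-TBG-null, so both groups received virus. Mice are called controls 1 to 4 and knockouts 1 to 4 after the replicate numbers in the labels. The labels call both groups healthy and give no age. The other female groups used for comparison ate a high-fat (HF) diet, D12492, or were switched from it to the HFCF diet, D16010101. The HFCF diet adds cholesterol and fructose and was fed for 16 weeks. These females received the same viruses, with 4 mice per group. Male knockouts and controls on the HF and HFCF diets, with 6 mice per group, were also compared, and received virus after 16 weeks on diet. RNA was taken from whole liver, so cells in which the TBG promoter is silent, and their intact Pparg, contributed to every library. In such bulk samples, fewer cells of a type and less RNA per cell cannot be told apart.

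Pparg encodes PPARγ, a nuclear receptor that binds fatty acid ligands, pairs with RXR and switches on genes of lipid uptake and lipid droplet storage. It is the main regulator of fat cell formation. In liver it is normally low and increases in steatosis, where it drives a fat-storage program of lipid droplet proteins such as the CIDE and perilipin families. The comparison asks what loss of hepatocyte PPARγ does in livers of mice that were not on a fattening diet.

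No gene passed edgeR's quasi-likelihood test at an adjusted p under 0.05 (0 of 14285 tested, 0%; lowest adjusted p 0.925, Benjamini-Hochberg). At an unadjusted p under 0.05 there were 355 genes (2.49% of those tested), 185 higher in knockouts (1.3%) and 170 lower (1.19%). The groups did not overlap in 230 genes (1.61%). The DESeq2 Wald test, run on the same counts as an alternative, called 8 genes (0.056%): Itih5 and Pde6c higher, and Gbp6, Cyp2f2, A1bg, Serpinb1a, Gbp10 and Igfbp5 lower. The authors' deposited table held 7 calls at an adjusted p under 0.05, 2 higher and 5 lower, and all 7 were among those 8. The values below therefore describe directions and spreads in 4 against 4 mice, and the words higher and lower stand for measured differences, not for calls.

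Promoters from RefSeq (GRCm38.p6) are shown for members of the pathway lists with the lowest and the highest median difference, interferon-stimulated genes and cholesterol synthesis genes. Each stretch runs from 150 to 26 bases before the RefSeq start, 5′ to 3′ on the gene's strand. Capitals mark matches, on either strand and with overlaps allowed, to the interferon-stimulated response element written as GAAA, any 2 bases and GAAA in the first 4, and to the sterol regulatory element written as TCACNCCAC in Hmgcs1.
Ifit1, chr19:34640739-34640863, plus strand: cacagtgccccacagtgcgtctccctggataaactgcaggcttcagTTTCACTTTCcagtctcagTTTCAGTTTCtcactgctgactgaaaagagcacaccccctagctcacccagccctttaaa
Rsad2, chr12:26456478-26456602, minus strand: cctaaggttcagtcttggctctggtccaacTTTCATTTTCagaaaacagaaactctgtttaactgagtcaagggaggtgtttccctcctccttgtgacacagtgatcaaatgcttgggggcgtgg
Gbp3, chr3:142559894-142560018, plus strand: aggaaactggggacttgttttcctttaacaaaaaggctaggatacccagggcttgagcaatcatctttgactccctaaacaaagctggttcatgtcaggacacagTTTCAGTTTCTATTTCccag
Isg15, chr4:156200844-156200968, minus strand: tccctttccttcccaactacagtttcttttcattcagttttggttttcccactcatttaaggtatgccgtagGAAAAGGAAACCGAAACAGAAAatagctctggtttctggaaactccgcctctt
Hmgcs1, chr13:119690201-119690325, plus strand: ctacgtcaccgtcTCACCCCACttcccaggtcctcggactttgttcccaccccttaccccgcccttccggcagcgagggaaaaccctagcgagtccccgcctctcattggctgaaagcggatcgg

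Matches were sought in the 250 bases before each start only. Promoters were found for 16 of the 20 interferon-stimulated genes. The GAAA repeat occurred in 10 of their 19 promoters (52.6%), against 978 of all 32851 promoters (2.98%). TCACNCCAC occurred in 1 of 20 promoters of 17 cholesterol synthesis genes, that of Hmgcs1, against 1.05% of all promoters. The direct repeat bound by PPAR and RXR pairs, written as AGGNCA at both ends with 1 base between, occurred in 0 of 28 promoters of 21 PPARG-associated lipid genes and in 0.338% of all promoters. These are matches to letters, not binding sites.

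Depth was 16431953 to 20018700 reads on genes per library. In CPM, the counts scaled to a common library size, the leading principal component (32.5% of the variance on the log2 scale) did not separate the groups: control 1 (-43.2) and knockout 4 (-26.8) lay at one end, knockout 3 (29.99) and control 3 (20.4) at the other. Marker lists were summed per library. Hepatocyte markers summed to 99538 to 126564 CPM in controls and 110174 to 126173 in knockouts. T, B and NK cell markers stood out in 1 library of each group, control 1 (125 CPM) and knockout 4 (124 CPM). Xist was present and 4 Y-linked genes had 0 reads in every library, as the female labels require.

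Pparg itself (ENSMUSG00000000440, GRCm38 chr6:115360951-115490399, plus strand, overlapping Gm44079) was not lower in the knockouts. It measured 7.4002, 7.24, 10.5 and 13.6 CPM in the controls and 21.6, 13.7, 12.5 and 9.94 CPM in the knockouts. Knockouts 1 and 2 lay above every control, and knockouts 3 and 4 lay within the control range. The means were 9.69 ± 3.01 and 14.4 ± 5.01 CPM (SD, n = 4 each), a log2 difference of 0.57 (SE 0.27; edgeR unadjusted p = 0.0543, adjusted p = 0.9996). An exact permutation test on the log2 CPM, 2-sided, gave p = 0.171, where 4 against 4 mice allow no p below 0.0286. The counts are per gene and the labels do not name the deleted exons, so reads from a transcript that lacks them, and from cells other than hepatocytes, are counted too. The count is therefore no check of the deletion.

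Pparg was at its lowest among the female groups on this diet. With all female libraries on 1 scale, its mean was 10.1 ± 3.13 CPM in low-fat controls and 15.0 ± 5.27 in low-fat knockouts, 18.2 ± 3.99 and 28.1 ± 7.91 on the HF diet, and 23.3 ± 1.44 and 45.1 ± 9.43 on the HFCF diet (SD, n = 4 each). In order of the means, the range of every group overlapped that of its neighbour. Within the HFCF diet the knockouts (37.9 to 58.7 CPM) lay wholly above the controls (21.4 to 24.9 CPM), and Pparg was the 1 gene that edgeR called higher there (log2 difference 0.97, SE 0.13, edgeR adjusted p = 0.0422; 8 of 14980 genes called, 0.0534%). On the HF diet the difference was 0.64 (SE 0.22, edgeR adjusted p = 0.584). The knockout-minus-control difference of Pparg was not shown to depend on diet (interaction against the low-fat diet 0.07, edgeR unadjusted p = 0.847, for HF, and 0.41, edgeR unadjusted p = 0.201, for HFCF).

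The partners and coregulators of PPARγ were close to equal in the groups. None of the 16 genes of that list had an unadjusted p under 0.05, and their log2 differences ran from -0.24 (Ppargc1b, a coactivator) to 0.57 (Pparg). Rxra, the main RXR partner in liver, measured 572 ± 87.1 CPM in controls and 566 ± 137 in knockouts. Ppara, the fasting-activated PPAR, measured 136 ± 41.9 and 142 ± 62.6 CPM, and Ppard 11.7 ± 0.636 and 11.6 ± 1.28 CPM. On the length-scaled FPKM values of the deposited table, the control mean level was 38.0 for Ppara, 3.51 for Pparg and 1.67 for Ppard.

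Genes of lipid droplet storage and lipid uptake known to depend on PPARγ were mostly lower by small amounts. Of 24 listed genes, 19 passed the filter on low counts, 15 with a negative and 4 with a positive log2 difference, with a median of -0.18 against 0.01 over all genes tested. A gene could pass the filter through 1 group alone, so these shares do not cover the whole list. The other 5, Cidea, Aqp7, Cfd, Adipoq and Sdcbp2, had at most 9 reads in any library. Clstn3, Osbpl3, Gal3st1 and Sdcbp2 were listed because they were lower in knockouts in other groups of this series.

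Plin4 (ENSMUSG00000002831, GRCm38 chr17:56100591-56109803), a perilipin that coats small lipid droplets, was the member with an unadjusted p under 0.05. It measured 18.2, 17.3, 26.0 and 19.0 CPM in controls and 15.6, 10.4, 12.5 and 16.7 CPM in knockouts. The groups did not overlap (121 of all genes tested, or 0.847%, had every knockout below every control), with knockout 4 just under the lowest control. The log2 difference was -0.54 (SE 0.18; edgeR unadjusted p = 0.0116, adjusted p = 0.9996). Plin4 overlaps Hdgfl2, and the reads were not assigned by strand.

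The other droplet genes overlapped between groups. Cidec, which fuses droplets into larger ones, measured 6.86, 5.19, 4.55 and 9.06 CPM in controls and 6.36, 4.88, 7.07 and 4.40 CPM in knockouts, a log2 difference of -0.18 (SE 0.24). Knockout 4 was the lowest of the 8 livers and control 4 the highest, and the group means differed by less than either SD. Plin2, the main droplet coat protein of hepatocytes, measured 770 ± 260 CPM in controls and 797 ± 92.4 in knockouts. Mogat1, an enzyme of triglyceride assembly, was near the detection limit in both groups (0.743 ± 0.527 and 0.511 ± 0.284 CPM).

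Among genes of lipid uptake and release, Cd36, a fatty acid transporter, measured 135, 164, 183 and 181 CPM in controls and 185, 127, 86.0 and 102 CPM in knockouts. Knockouts 2, 3 and 4 lay below every control and knockout 1 above every control (log2 difference -0.41, SE 0.21, edgeR unadjusted p = 0.0847). Lpl, lipoprotein lipase, had a log2 difference of -1.32 (SE 0.69), carried by control 1 at 112 CPM, while the other controls lay at 10.5 to 16.7 CPM and the knockouts at 8.32 to 23.5 CPM. Pnpla2, the lipase that opens triglyceride stores, was the member with the most positive difference (92.8 ± 14.9 against 111 ± 9.16 CPM, log2 0.26, edgeR unadjusted p = 0.0621). The number of members with an unadjusted p under 0.05 on the low side was 5 without knockout 1, 3 without control 1, 2 without control 3 and 2 without control 4, against 1 with all libraries. Of 7 adipocyte markers, Fabp4 and Car3 were tested, and their sum, nearly all of it Car3, was 743 to 1152.4 CPM in controls and 451 to 733 CPM in knockouts. The defining markers Adipoq, Retn and Plin1 had at most 2 reads.

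**Figure D1:**
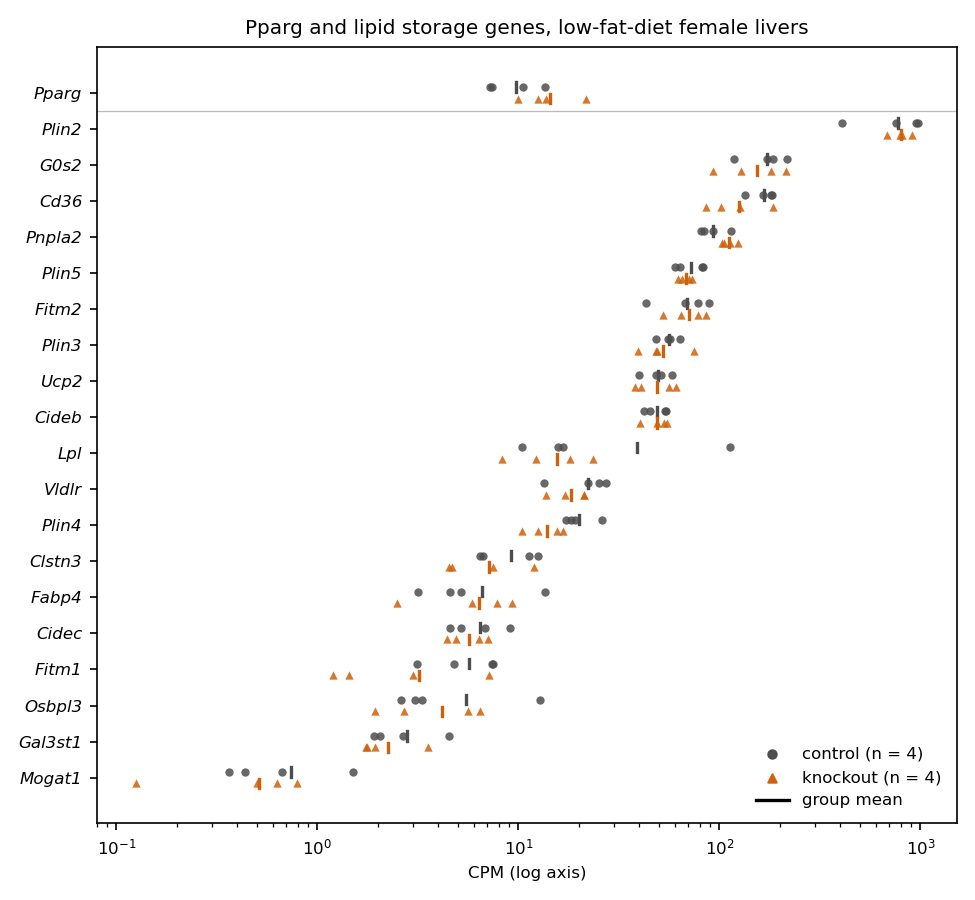
CPM (log axis) of Pparg and of the 19 tested PPARG-associated lipid storage genes in each of the 4 control and 4 knockout livers; each point is 1 mouse and each bar a group mean. Pparg is not lower in knockouts, and of the lipid genes Plin4 alone has all 4 knockouts below all 4 controls.

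Several of these genes had larger differences in females on the other diets, and the difference between diets was itself tested. Between knockouts and controls edgeR called 0 of 14128 genes (0%) on the HF diet and 8 of 14980 (0.0534%) on the HFCF diet. On the HFCF diet 4 of 21 tested list members were called lower. Plin4 had a log2 difference of -3.08 on the HF diet and -2.80 on the HFCF diet, that is, -2.53 and -2.25 relative to the low-fat value (edgeR interaction, unadjusted p = 7.42e-05 and 0.000188). Cidec had -2.56 and -2.39, or -2.37 and -2.21 relative to the low-fat value (unadjusted p = 0.00580 and 0.000101). In the HF interaction 5 of 19 tested members had an unadjusted p under 0.05 with a more negative difference than on the low-fat diet, where 1.5% of all genes did, and in the HFCF interaction 7 of 21, where 1.92% did. Clstn3, Osbpl3, Gal3st1 and Sdcbp2 were listed because they were lower in knockouts in other groups of this series. The counts of list members given here may therefore follow in part from that choice. Both interactions use the same 8 low-fat libraries. No gene passed the adjusted threshold in either interaction (0 of 14938 and 0 of 15496), and the control level of these genes also differed: Cidec in controls was 6.70 ± 2.09 CPM on the low-fat diet, 21.1 ± 22.7 on the HF diet and 63.6 ± 15.3 on the HFCF diet (SD, n = 4).

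Genes of cholesterol synthesis and other targets of SREBP2, a transcription factor activated at low sterol levels, were higher in the knockouts. All 25 listed genes were tested and all 25 had a positive log2 difference, against 51.7% of all genes. Their median was 0.57, and 12 had an unadjusted p under 0.05 on the high side, where 1.3% of all genes did; none passed the adjusted threshold. The list was chosen with earlier results of these data known, so these counts may follow in part from that choice. The members cover the pathway from its start (Hmgcs1, Mvk, Pmvk, Mvd, Idi1) through squalene (Fdps, Fdft1, Sqle) to the late sterol steps (Cyp51, Msmo1, Nsdhl, Hsd17b7).

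Hmgcs1, which makes HMG-CoA at the head of the pathway and whose promoter is shown above, measured 106, 142, 87.2 and 106 CPM in controls and 244, 171, 112 and 251 CPM in knockouts. Knockouts 1, 2 and 4 lay above every control and knockout 3 within the control range (log2 difference 0.82, SE 0.24, edgeR unadjusted p = 0.00645). Hsd17b7, an enzyme of the late sterol steps, was the member whose groups did not overlap, at 42.9, 60.0, 59.3 and 55.7 CPM in controls and 81.6, 93.4, 68.7 and 66.9 CPM in knockouts (log2 difference 0.51, SE 0.14). In 109 of all genes tested (0.763%) every knockout lay above every control.

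Sqle, squalene epoxidase, measured 40.6, 42.4, 12.8 and 17.7 CPM in controls and 70.8, 59.2, 31.5 and 77.6 CPM in knockouts (log2 difference 1.08, SE 0.38). Knockout 3 lay between the pairs of controls. Mvd measured 11.6 ± 6.11 CPM in controls and 27.0 ± 12.6 in knockouts (log2 1.22, SE 0.40), and Fdps, which has processed copies in the genome that can take its reads, 2.90 ± 1.63 and 7.21 ± 3.41 CPM (log2 1.32, SE 0.44). Srebf2 itself measured 71.2 ± 3.92 and 80.5 ± 7.34 CPM. Mmab, the cobalamin enzyme gene that lies head to head with Mvk on chromosome 5, was not on the list. Its knockouts (30.4 to 35.9 CPM) all lay above its controls (16.5 to 28.2 CPM). It was taken by p from genes without overlap, so this separation follows from the choice.

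Control livers differed among themselves in this pathway. The median of the 25 members, as the log2 deviation from the control mean, was 0.23 and 0.47 in controls 1 and 2 and -0.57 and -0.21 in controls 3 and 4, and 0.97, 0.65, 0.07 and 0.92 in knockouts 1 to 4. Controls 1 and 2 and knockout 4 carry a higher range of animal numbers in the labels than the other 5 mice, and the labels do not say what the ranges stand for. Within each range every knockout lay above every control. With the range as a covariate in the edgeR fit, 19 of 25 members had an unadjusted p under 0.05, with a median of 0.89 and 24 of 25 differences positive, and no gene of the table passed the adjusted threshold.

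Red blood cell genes were highest in the same knockouts as the cholesterol genes. The globin-led marker list summed to 76.6 to 103 CPM in controls and to 241, 145, 70.7 and 195 CPM in knockouts 1 to 4. All 5 tested members had a positive difference, and Hba-a1, Hba-a2, Hbb-bs and Hbb-bt, which are near-identical pairs, had an unadjusted p under 0.05. Cholangiocyte markers, 7 of 7 with a positive difference and none under 0.05, summed to 86.8 to 129 CPM in controls and 81.1 to 186 CPM in knockouts, highest in knockouts 1 and 4. Without knockouts 1 and 4, an omission added after seeing the data, 22 of 25 cholesterol genes were positive, with a median of 0.31. Of these genes 2 had an unadjusted p under 0.05, against 12 with all libraries. Whether the marker and cholesterol gene differences are linked was not tested. The count under 0.05 was 8 without control 3, 6 without control 4, 7 without knockout 1 and 8 without knockout 4.

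The cholesterol genes also had positive medians on the other diets. Their median log2 difference was 0.27 on the HF diet and 0.41 on the HFCF diet in females, with 1 and 13 members under an unadjusted p of 0.05 on the high side, where 3.44% and 4.66% of all genes did. In males 14 of 25 were positive on the HF diet (median 0.06) and 25 of 25 on the HFCF diet (median 0.43). No member had an unadjusted p under 0.05 in either interaction with diet in females. Genes of fatty acid and triglyceride synthesis, the targets of the related SREBP1, had 18 of 24 positive differences, a median of 0.16 and 0 members under 0.05. Their spread between mice was wide: Acss2 measured 140, 511, 59.8 and 111 CPM in controls and 535, 404, 111 and 454 CPM in knockouts, and Scd1 ran from 6748 to 27469 CPM in controls. Fasn, the fatty acid synthase, measured 932 ± 573 and 1083.9 ± 386 CPM.

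**Figure D2:**
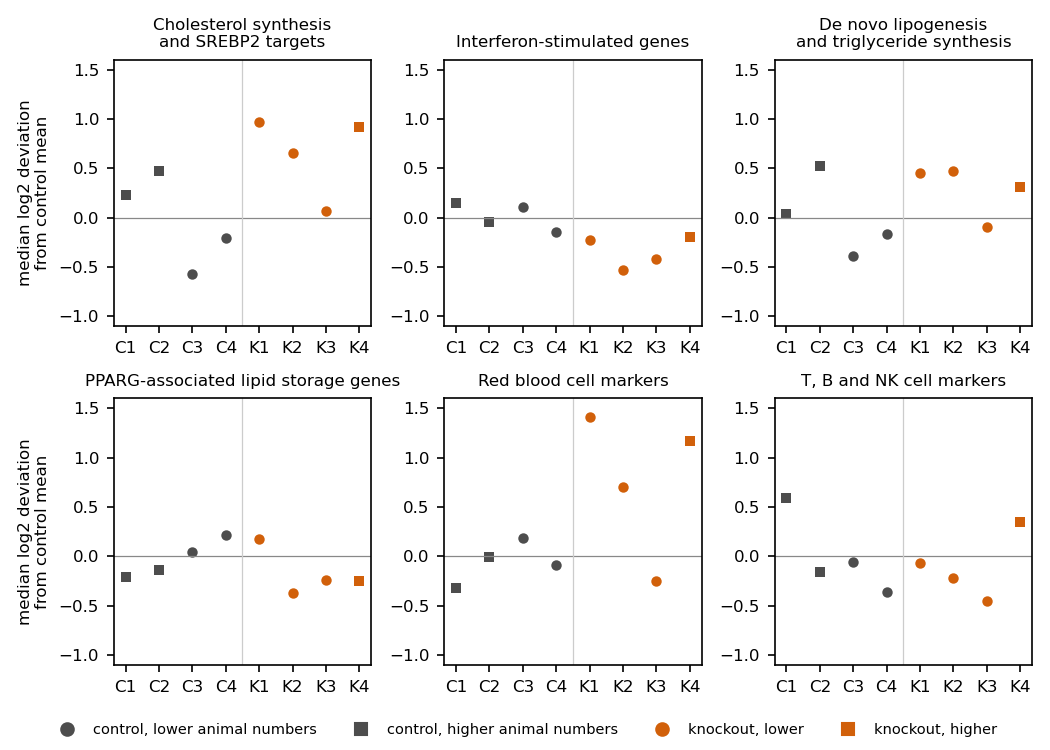
Median log2 deviation from the control mean over the tested members of 6 gene lists in each control (C1 to C4) and knockout (K1 to K4) liver; circles and squares mark the lower and higher range of animal numbers. Cholesterol genes are highest in K1 and K4, which also have the most red blood cell RNA, and the median of the interferon-stimulated genes is lower in all 4 knockouts than in all 4 controls.

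Interferon-stimulated genes, which are switched on by interferon signalling, were lower in the knockouts. All 20 listed genes were tested and all 20 had a negative difference, against 48.3% of all genes. Their median was -0.33, and 6 had an unadjusted p under 0.05 on the low side, where 1.19% of all genes did: Ifit1, Irf9, Usp18, Rsad2, Gbp3 and Ifi44. None passed the adjusted threshold. This list too was chosen with earlier results of these data known, so its counts may follow in part from that choice. The median deviation of the 20 genes from the control mean was 0.15, -0.04, 0.11 and -0.14 in controls 1 to 4 and -0.23, -0.53, -0.42 and -0.19 in knockouts 1 to 4, without overlap between groups. Their summed CPM did overlap, at 626 to 800 in controls and 518 to 688 in knockouts, with knockout 4 above controls 2 and 4.

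Ifit1, an antiviral RNA-binding protein with 2 response-element matches in the promoter shown above, measured 19.9, 16.0, 39.5 and 20.6 CPM in controls and 12.8, 8.89, 13.3 and 10.9 CPM in knockouts. Every knockout lay below every control, and control 3 was the highest (log2 difference -1.07, SE 0.26, edgeR unadjusted p = 0.00193). Gbp3, a guanylate-binding GTPase, measured 26.9, 30.5, 26.1 and 28.04 CPM in controls and 24.1, 22.03, 19.8 and 23.3 CPM in knockouts, also without overlap (log2 difference -0.32, SE 0.10). Rsad2, which encodes viperin, measured 21.4, 9.89, 30.5 and 8.004 CPM in controls and 10.6, 6.89, 7.36 and 11.0 CPM in knockouts. There controls 2 and 4 lay within the knockout range (log2 difference -0.96, SE 0.38).

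The upstream members had smaller differences. Irf9 measured 64.2 ± 4.20 CPM in controls and 53.1 ± 7.77 in knockouts (log2 -0.27, SE 0.12), and Stat2 123 ± 8.06 and 119 ± 14.3 CPM (log2 -0.05). Isg15, the ubiquitin-like modifier, measured 12.3 ± 2.17 and 9.91 ± 0.651 CPM (log2 -0.31, edgeR unadjusted p = 0.0635). Genes outside the list but known to respond to interferon were also among those with the lowest p on the low side: Gbp6 and Gbp10, further guanylate-binding proteins on chromosome 5, and Apol9a.

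Gbp6 (ENSMUSG00000104713, chr5:105270702-105293698) measured 9.41, 11.3, 11.3 and 10.8 CPM in controls and 6.58, 4.76, 5.43 and 5.89 CPM in knockouts (log2 difference -0.92, SE 0.15). Gbp10 measured 10.2 ± 2.44 and 5.09 ± 0.883 CPM, and Apol9a 146, 79.2, 111 and 77.3 CPM in controls and 69.3, 46.6, 61.5 and 54.8 CPM in knockouts. In all 3 the groups did not overlap, but they were taken by p from genes without overlap, so this follows from the choice. These genes have close paralogs, Gbp6 and Gbp10 both overlap Gm43302, and reads could be split between such copies, so their values are uncertain.

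Lymphocyte markers did not separate the groups the way the interferon-stimulated genes did. T, B and NK cell markers had 6 of 12 positive differences, a median of -0.07 and summed ranges of 43.4 to 125 CPM in controls and 49.4 to 124 CPM in knockouts. Cd8a, of cytotoxic T cells, was the marker of that list under an unadjusted p of 0.05 (1.70 ± 0.455 against 0.968 ± 0.215 CPM). Without control 1 and knockout 4, the libraries highest in these markers, 19 of 20 interferon-stimulated genes were negative, with a median of -0.37 and 4 under 0.05. This omission was added after seeing the data, and whether the 2 lists are linked was not tested. The count under 0.05 was 4 without control 1, 3 without control 3 and 3 without knockout 2, and 10 without knockouts 1 and 4.

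Interferon-stimulated genes were mostly positive in females on the other diets, 15 of 20 on the HF diet and 14 of 20 on the HFCF diet. Their median was 0.16 on the HF diet and 0.11 on the HFCF diet. In males 17 of 20 were positive on the HF diet and 16 of 20 on the HFCF diet. In each interaction with diet in females 19 of 20 members had a more positive difference than on the low-fat diet. Of these, 5 had an unadjusted p under 0.05 in the HF interaction, where 2.21% of all genes did on that side, and 6 in the HFCF interaction, where 2.3% did. Gbp3 had an interaction of 0.84 for HF (edgeR unadjusted p = 0.000266) and 0.50 for HFCF (edgeR unadjusted p = 0.0177), and Ifit1 1.14 (0.00787) and 1.49 (0.000663). No member passed the adjusted threshold. Both interactions subtract the same low-fat difference, which was negative in all 20 members. Their counts therefore follow in part from it and are not 2 separate results.

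**Figure D3:**
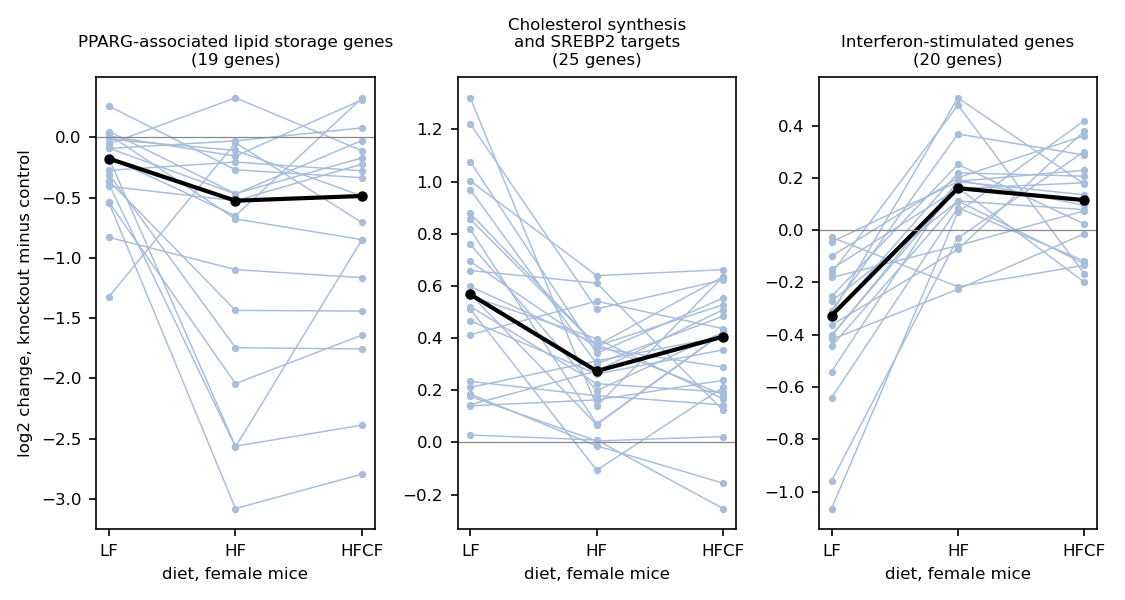
Log2 difference (knockout minus control) of the members of 3 gene lists in females on the low-fat (LF), HF and HFCF diets; each thin line is 1 gene tested on all 3 diets, the black line the median, and the vertical scales differ between panels. The median of the lipid storage genes is nearest 0 on the low-fat diet, cholesterol genes lie mostly above 0 on all 3 diets, and interferon-stimulated genes are below 0 on the low-fat diet.

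The remaining ranked genes were taken by p among genes whose groups did not overlap, so their separation is a description. On the high side, Itih5 (ENSMUSG00000025780, chr2:10153571-10256529), an inter-alpha-trypsin inhibitor heavy chain of the matrix, measured 10.7, 9.83, 9.04 and 11.3 CPM in controls and 17.9, 18.9, 13.8 and 17.8 CPM in knockouts (log2 difference 0.74, SE 0.13; DESeq2 Wald adjusted p = 0.00890). Pde6c (ENSMUSG00000024992, chr19:38132781-38183958), a phosphodiesterase subunit best known from cone photoreceptors, measured 0.816, 1.99, 1.28 and 1.06 CPM in controls and 6.47, 4.01, 2.603 and 4.06 CPM in knockouts (log2 1.74, SE 0.35). Its difference was positive in females on the HF (0.54) and HFCF (0.99) diets and in males on both (1.31 and 1.16), where Itih5 had -0.05, -0.38, -0.52 and 0.25.

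Aldoc, an aldolase of glycolysis, measured 3.69 ± 1.11 CPM in controls and 8.01 ± 2.79 in knockouts, and Lmntd2 1.49 ± 0.172 and 3.29 ± 0.943 CPM. Fmo4, Bzw2, Foxk2, Rbm3, Lect2 and Il1r1 were also higher, by log2 differences of 0.33 (Rbm3, a cold-inducible RNA-binding protein) to 0.62 (Il1r1, the receptor for interleukin 1). Lect2, a hepatocyte-secreted protein, measured 106 ± 10.8 and 138 ± 11.2 CPM. Lmntd2 overlaps Lrrc56, Bzw2 overlaps Ankmy2, Il1r1 overlaps Gm38070 and Rbm3 its antisense gene Rbm3os.

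On the low side, A1bg (ENSMUSG00000022347, chr15:60896859-60923012), a plasma glycoprotein gene with female-biased expression in mouse liver, had the largest difference of the ranked genes. It measured 1464, 117, 661 and 252 CPM in controls and 44.7, 21.8, 14.6 and 80.1 CPM in knockouts, a log2 difference of -3.95 (SE 0.79; edgeR unadjusted p = 0.000429, DESeq2 Wald adjusted p = 0.0149). The groups did not overlap, but the controls spanned more than the gap between the groups. The other 14 female-biased genes of the list had differences of -0.49 to 0.54 and no unadjusted p under 0.05. A1bg had a log2 difference of 2.75 in HF females and -0.33 in HFCF females, and it overlaps 4930402D18Rik.

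Cyp2f2 (ENSMUSG00000052974, chr7:27119909-27133660), a cytochrome P450 of periportal hepatocytes, measured 482, 297, 343 and 364 CPM in controls and 199, 203, 223 and 210 CPM in knockouts (log2 difference -0.83, SE 0.15; DESeq2 Wald adjusted p = 0.000421). The knockouts lay close together and below every control. It was the 1 of 12 periportal genes with an unadjusted p under 0.05, and the others ran from -0.20 (Ctsc) to 0.26 (Arg1, the urea cycle arginase). Of 12 pericentral genes, 11 had a positive difference, with a median of 0.19. Slc1a2, a glutamate transporter, was the pericentral member under 0.05 (208 ± 11.7 against 252 ± 21.8 CPM), and Glul, glutamine synthetase, measured 1168 ± 269 and 1458 ± 252 CPM.

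Serpinb1a (ENSMUSG00000044734, chr13:32842092-32851185), an inhibitor of neutrophil proteases, measured 18.8, 23.0, 24.5 and 31.5 CPM in controls and 14.7, 13.4, 11.4 and 7.54 CPM in knockouts (log2 difference -1.06, SE 0.21). Igfbp5, a binding protein of insulin-like growth factors, measured 13.6 ± 1.22 and 8.78 ± 0.905 CPM, and Cldn1, a tight junction protein, 62.0 ± 11.3 and 41.4 ± 2.42 CPM. Gldc, the glycine decarboxylase of mitochondria, measured 183 ± 25.9 and 120 ± 22.5 CPM. Kcnk10, a potassium channel, and Rexo2, a mitochondrial oligoribonuclease, were lower by log2 differences of -0.91 and -0.35. On the other female diets the differences of Serpinb1a (-0.02 and 0.96), Cldn1 (-0.03 and 0.33) and Gldc (-0.09 and 0.23) were near 0 or positive, and that of Igfbp5 had opposite signs (1.43 and -1.28).

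**Figure D4:**
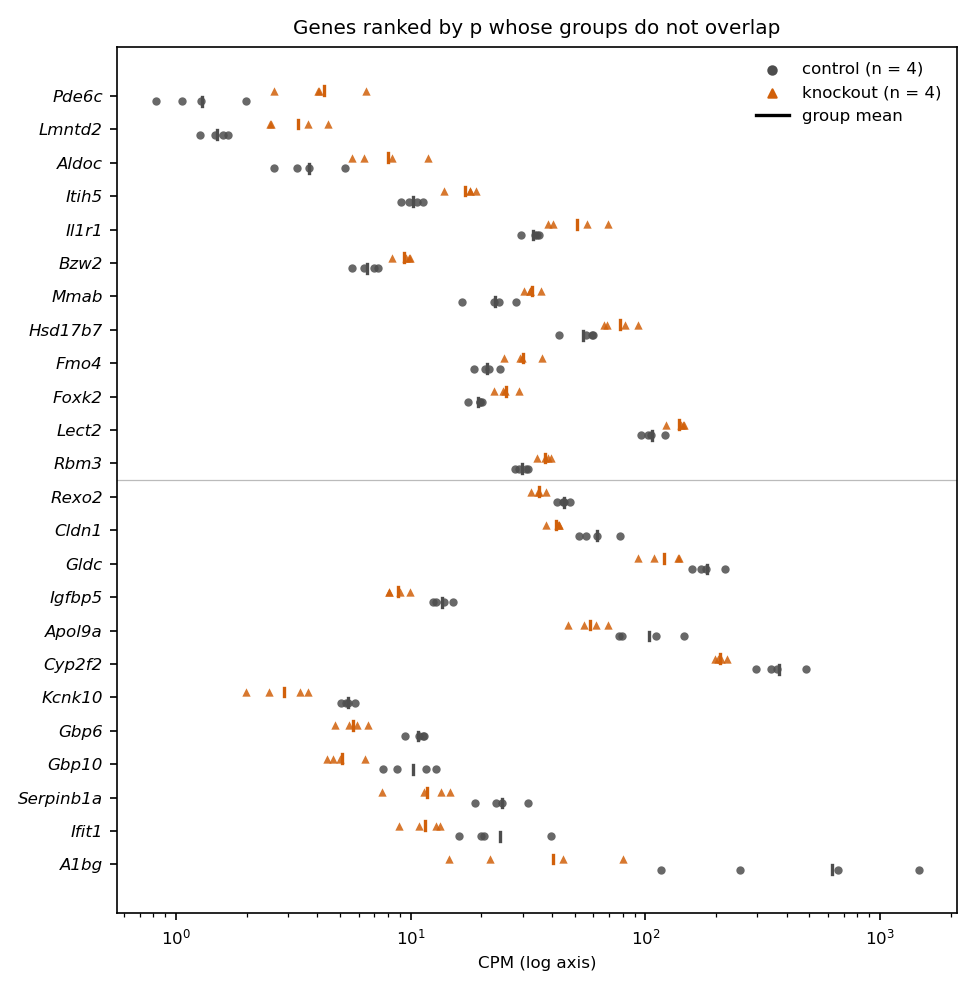
CPM (log axis) in each control and knockout liver of the 12 genes higher (top) and 12 lower (bottom) in knockouts with the lowest p among those whose groups do not overlap; bars are group means (n = 4). A1bg and Pde6c have the largest log2 differences (-3.95 and 1.74), and A1bg also has widely spread controls (117 to 1464 CPM).

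PPARA targets, whose receptor shares ligands and binding sites with PPARγ, and genes of fatty acid oxidation had a median near 0 that depended on the libraries. Of 31 tested members, 10 were positive and 21 negative, with a median of -0.03 and 0 under an unadjusted p of 0.05. Without control 1, the lowest library in these genes, 29 of 31 were negative, with a median of -0.22 and 5 under 0.05. Without control 4, the highest, 21 of 31 were positive, with a median of 0.09. Fgf21, a fasting hormone, measured 9.09 ± 3.99 CPM in controls and 11.1 ± 1.40 in knockouts. Genes of bile acid synthesis and transport had 8 of 15 positive differences, a median of 0.02 and none under 0.05.

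For 4 other lists, given here as examples, the median changed sign when 1 library was left out. Genes of fibrosis and the extracellular matrix were negative in 16 of 22 tested members, with a median of -0.26 and 1 member under an unadjusted p of 0.05 on each side. Without control 1, the highest library in these genes (median deviation 0.65), 15 of 22 were positive (median 0.05), and with the animal number range as a covariate 12 of 22 were negative (median -0.02). Inflammatory genes were negative in 10 of 14 (median -0.17), but positive in 9 of 14 without control 1 (median 0.05) and with the covariate (median 0.03). Markers of lipid-associated macrophages were negative in 5 of 8 (median -0.32), but positive in 8 of 8 without control 1 (median 0.28) and in 5 of 8 with the covariate (median 0.05). Acute phase genes of the hepatocyte were positive in 11 of 17 (median 0.15), with the deviation at 0.72 in knockout 3 and at -0.03, -0.14 and -0.27 in knockouts 1, 2 and 4. Without knockout 3 they were positive in 4 of 17 (median -0.14). No member of these last 3 lists had an unadjusted p under 0.05 with all libraries.

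Gluconeogenesis and fasting genes were negative in 14 of 18 (median -0.10), with 1 under 0.05, and male-biased liver genes in 7 of 10 (median -0.15), with 1 under 0.05 on the low side. Cell cycle genes were positive in 7 of 15, with a median of 0.00 and 1 member under 0.05 on each side. Markers of resident Kupffer cells (7 of 12 positive, median 0.01), stellate cells (6 of 12, median 0.02) and sinusoidal endothelium (10 of 11, median 0.13) had no member under 0.05. The medians of the cell cycle and bile acid genes and of these 3 marker lists took either sign over 16 alternative settings. So did those of further lists, among them periportal, immediate early, female-biased, stress and PPAR partner genes and T, B and NK cell markers.

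In HF males edgeR called 2591 of 14041 genes (18.5%), 1387 of them lower in knockouts. In HFCF males it called 324 of 14685 (2.21%), 187 of them lower. Genes called lower in male knockouts on both diets leaned the same way in these females. Of 138 such genes 129 were tested, and 90 (69.8%) had a negative difference, against 48.3% of all genes, with a median of -0.09 and 5 under an unadjusted p of 0.05 on that side, where 1.19% of all genes were, among them Trib3, Plin4 and Abcc3, an exporter of conjugated bile acids (278 against 209 CPM). These 3 were chosen after their values were seen. Of 77 tested genes called higher in males on both diets, 44 (57.1%) had a positive difference, against 51.7% of all genes. The comparisons share no libraries, and the lean was not tested.

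**Figure D5:**
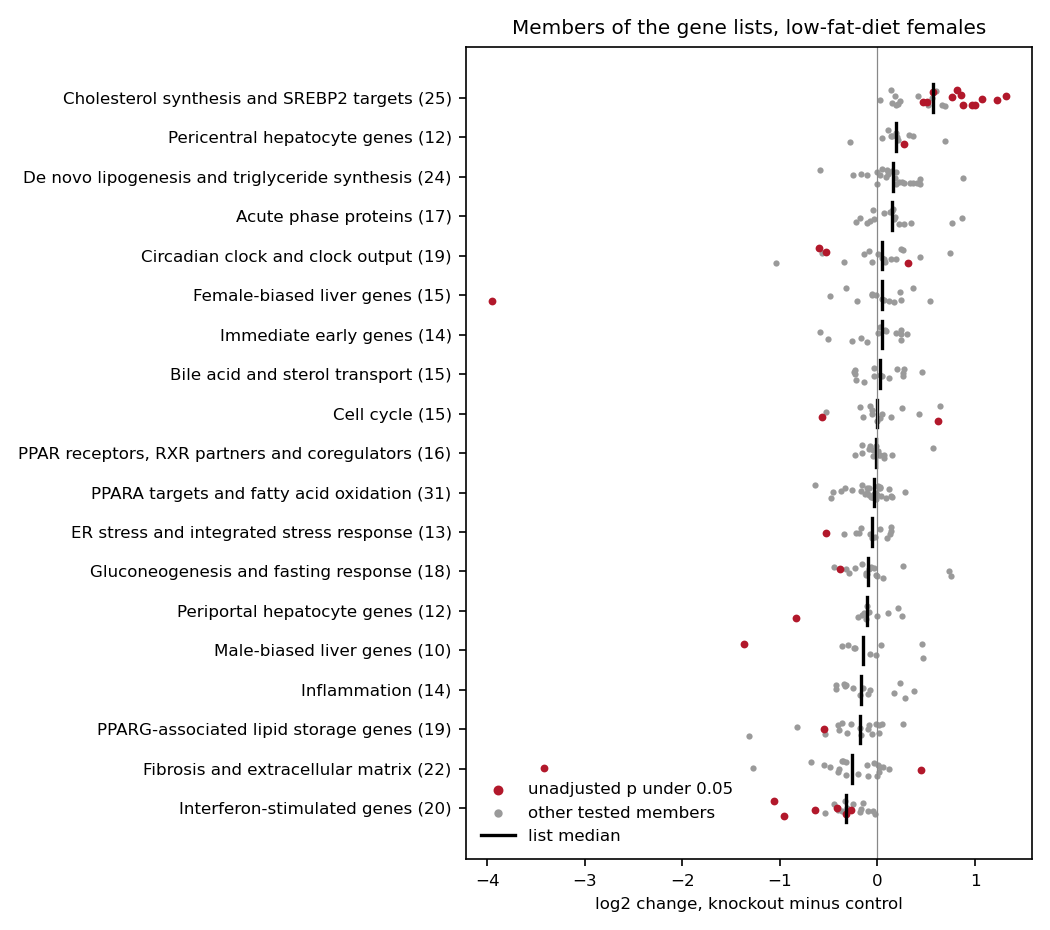
Log2 difference (knockout minus control) of every tested member of 19 gene lists (number tested in brackets), with genes under an unadjusted p of 0.05 in red and a bar at each list's median. Medians run from -0.33 (interferon-stimulated genes) to 0.57 (cholesterol synthesis and SREBP2 targets); no gene passed the adjusted threshold.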

How the data were processed

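Whole-liver RNA was sequenced in unstranded libraries with inserts of 250 to 300 bp, per the labels. STAR 2.6.1, HTSeq 0.6.1, DESeq2 and GRCm38 (mm10) are named per the submitters' processing notes. The deposited tables hold raw read counts per gene, a normalised signal that was checked to be the deposited count times 1 factor per library, FPKM values computed by the authors, and the authors' log2 fold changes and p-values. The 11 tables were joined by gene (29221 genes); 0 of 1341082 repeated counts differed. Gene coordinates are those of the tables.

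Counts of the 8 low-fat female libraries were filtered with filterByExpr, scaled by TMM and tested with the quasi-likelihood F test of edgeR 4.0.16 in R 4.3.3, with Benjamini-Hochberg adjustment over all 14285 genes. CPM values use the TMM factors. Interactions were fitted over the 4 groups concerned. Groups were called non-overlapping on log2 CPM with a prior count of 2. Each library is 1 mouse, so no samples were averaged. The biological coefficient of variation was 0.205. The script was tested on simulated data.

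The members and the 31 gene lists (451 genes, 447 found, 404 tested) were chosen with earlier results of these data known. Genes named are Pparg, list members with an unadjusted p under 0.05, the DESeq2 Wald calls, and up to 12 genes per direction ranked by p among those with at least 1 CPM on average, named (not predicted) and without overlap of the groups. Other list members were named after their values were seen, as examples of their group. Alternatives were DESeq2 1.42.0 size factors and Wald test, limma 3.58.1 voom with sample weights, other filters, all female groups in 1 fit, a replicate block, the animal number range as a covariate, an added limit on fold change, and the omission of each library. The omission of control 1 with knockout 4 and of knockouts 1 and 4 was added after seeing the data. Values of some list members are not reported here.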

Additional observations from a re-analysis of the deposited data

Results flagged for a closer look

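Among 120 groups of 4 values (60 named genes in controls and in knockouts), 5 held a library set apart from the other 3 by Dixon's criterion, which chance gives in about 1 group in 20. Col5a2, a fibrillar collagen chain, measured 165 CPM in control 1 and 4.28 to 5.79 CPM in the other controls. Its log2 difference of -3.42 (edgeR unadjusted p = 0.0135) rests on that library, and with each library left out in turn the p was as high as 0.338. Mup20, a major urinary protein with close paralogs, measured 106 CPM in control 1 and 15.7 to 20.6 CPM in the others. Its difference of -1.37 likewise had a p as high as 0.462 with 1 library left out. G6pc, glucose-6-phosphatase, measured 265 CPM in knockout 1 and 395 to 416 CPM in the other knockouts, with controls at 430 to 571 CPM. Lect2 measured 121.8 CPM in knockout 3 and 142 to 146 CPM in the others, and Cldn1 37.8 CPM in knockout 2 and 42.2 to 42.9 CPM in the others. What set these libraries apart was not tested.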

How the results depend on the processing

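No gene passed the adjusted threshold in the low-fat comparison or in either diet interaction under any alternative except the DESeq2 Wald test, which called 8 genes in the low-fat comparison, 2 in the HF interaction and 4 in the HFCF interaction, against 0 in each with edgeR. The number of genes under an unadjusted p of 0.05 in the low-fat comparison was 355 with all libraries, 657 with no filter on low counts, 650 with the animal number range as a covariate, 611 without knockouts 1 and 4, and 278 to 475 with 1 library left out. With the replicate number as a block it was 454 and 0 genes were called. The labels state no pairing. The deviations of same-numbered mice had correlations of 0.20, 0.07, 0.32 and -0.20, too few to decide whether the numbers pair the mice. Of 1080 values of named genes under 18 alternatives each, 1072 kept their direction and their side of the threshold, 8 passed it (the Wald calls) and 0 reversed. Apart from Pparg, these genes were chosen for a low p in these data, and the alternatives reuse most of the libraries. Keeping direction and side was therefore largely fixed in advance. The smallest difference that 4 mice per group can show was not computed.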

Other observations

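Several other gene groups had single members with an unadjusted p under 0.05 (edgeR, none past the adjusted threshold). Of 19 clock genes, Arntl, the core activator BMAL1, measured 4.38 ± 1.06 CPM in controls and 2.88 ± 0.742 in knockouts (SD, n = 4), and Nfil3, a repressor of clock output, 24.9 ± 3.57 and 17.2 ± 5.17 CPM without overlap. Per3, which opposes Arntl, measured 67.3 ± 3.67 and 83.7 ± 16.8 CPM. The remaining 16 clock genes had no unadjusted p under 0.05, and the time of day of collection is not given in the labels. Trib3, a stress-induced pseudokinase, measured 8.22 ± 1.05 and 5.70 ± 0.879 CPM without overlap, while the other 12 tested genes of the stress list missed the unadjusted threshold. Car3, a carbonic anhydrase abundant in fat and in liver, measured 917 ± 180 and 574 ± 145 CPM without overlap, with Adipoq, Retn and Plin1 at or near 0 reads. Immediate early genes, which respond within minutes to stimuli, summed to 597 CPM in control 1 and 502 CPM in knockout 4, and to at most 275 CPM in the other libraries.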
